A study of Mus musculus with 24 samples.

Results

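The genes described here encode the mouse proteasome. They were chosen by symbol, as every gene of the expression matrix named Psma, Psmb, Psmc, Psmd, Psme, Psmf or Psmg followed by a number and, at most, a letter. The rule found 47 genes among the 14159 with a symbol. Of these, 7 encode alpha subunits of the 20S core, 3 its constitutive catalytic beta subunits, 3 the catalytic beta subunits of the immunoproteasome, 4 other beta subunits, 6 ATPases and 11 non-ATPase subunits of the 19S cap, 7 assembly chaperones, 5 activators and 1 an inhibitor. Psma8 and Psmb11 were not analysed here.

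The data are 24 whole-muscle RNA libraries of the quadriceps, of which 12 came from C57BL/6 (B6) mice and 12 from MRL/MpJ (MRL) mice, known for unusually complete wound repair. The study's methods describe female mice aged 6 to 8 weeks at surgery. In each strain, 4 groups of 3 libraries were compared: Uninjured muscle, and muscle 21 days after volumetric muscle loss (VML, surgical removal of a piece of muscle) filled with Saline, with decellularized extracellular matrix (ECM) or with particles of polyethylene (PE), a synthetic polymer that the body cannot degrade. The labels name no transgene and no other agent. The labels number the replicates but do not say how each was sampled, so p-values measure the spread between these libraries. The comparisons ask how injury, each material and the strain background change the muscle transcriptome at that time.

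The proteasome is the protease that degrades most ubiquitin-tagged proteins in the cell. Its 20S core is a barrel of alpha and beta rings, in which Psmb5 (chymotrypsin-like), Psmb6 (caspase-like) and Psmb7 (trypsin-like) carry the active sites, and the 19S cap recognizes, unfolds and feeds in substrates. Interferon-gamma induces Psmb8, Psmb9 and Psmb10, which replace Psmb5, Psmb6 and Psmb7, respectively, in newly made cores, and induces the activator subunits Psme1 and Psme2. The resulting immunoproteasome, abundant in leukocytes, makes many of the peptides shown on MHC class I. In skeletal muscle, the constitutive proteasome is a main route of fibre protein breakdown.

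Expression was given as log2 CPM, the base 2 logarithm of a gene's reads scaled to a common library size, on which a difference of 1 is a doubling. Levels of different genes are not set against each other, since the scale is not corrected for transcript length. A gene was called changed at a Benjamini-Hochberg adjusted p under 0.05 over all 14159 genes in limma, fitted to all 24 libraries. Muscle fibre markers (8 of 8 held) summed to between 25600 and 161000 CPM in every library, as the tissue label says they should be high. Replicate 2 of the MRL PE group stood apart: its correlation with the other 2 libraries of its group over all genes was 0.812 and 0.827, its fibre marker sum was the lowest of all, and it was the lowest of the 24 libraries for 20 of the 47 proteasome genes. The calls averaged over the strains are therefore also given without it, and without B6 PE replicate 2, the library with the next lowest fibre marker sum.

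Most proteasome genes varied little. The median SD within groups was 0.19 log2 CPM over the 47 genes and 0.40 over all genes, and 40 of the 47 were at or under 0.3. The 7 alpha subunit genes lay between 5.34 and 7.25 log2 CPM in all libraries, each within a range of at most 0.90. The 11 non-ATPase genes of the 19S cap lay between 5.23 and 8.71, each within a range of at most 1.22. The 3 immunoproteasome genes had a wider range, of 2.45 to 3.62 per gene. Psmc2, an ATPase of the 19S cap, was an exception, with levels from -1.77 (MRL ECM replicate 1) to 6.18 (B6 Saline replicate 3). Its within-group SD of 2.10 was larger than that of 99.5% of all genes, and its differences between groups could not be resolved.

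**Figure D1:**
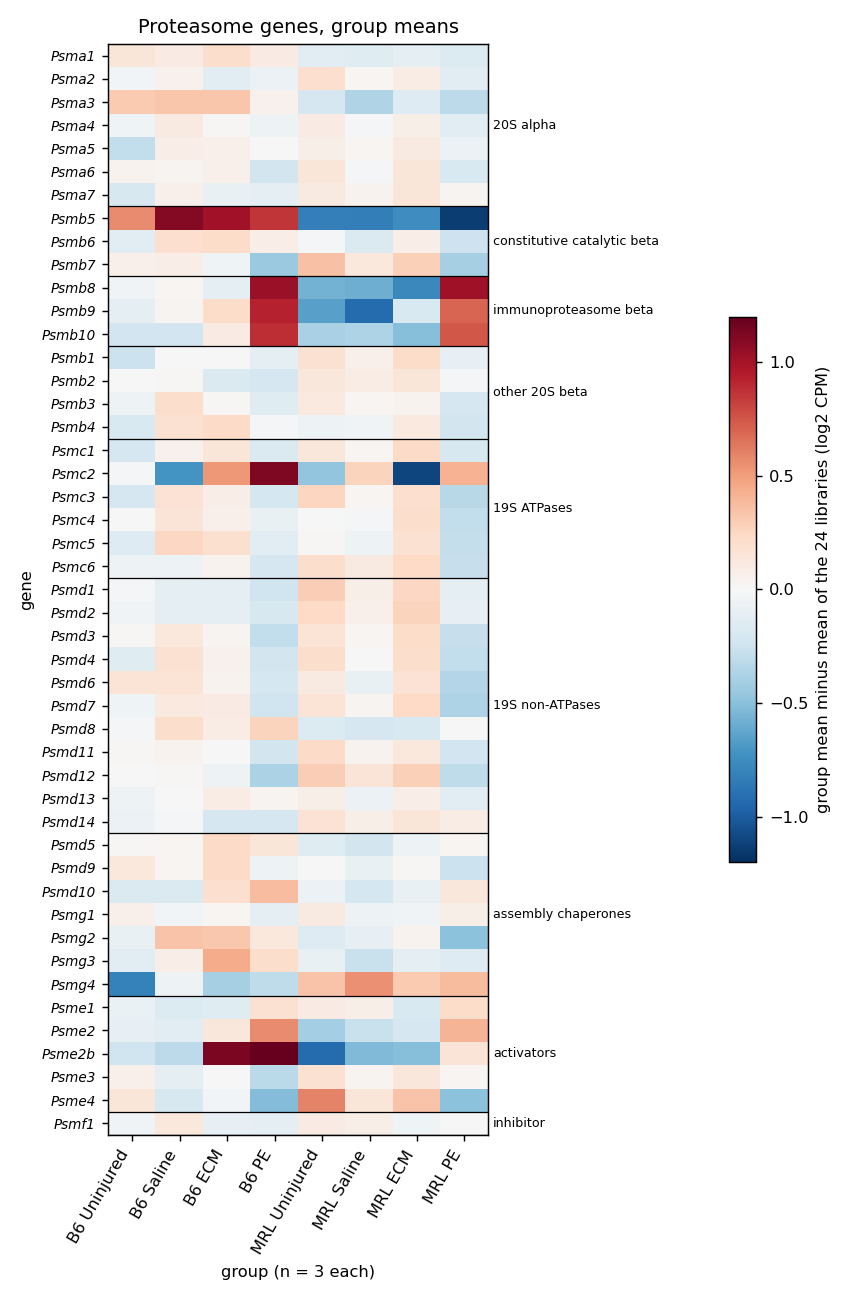
Mean level of each of the 47 proteasome genes in each of the 8 groups (n = 3), as group mean log2 CPM minus the gene's mean over all 24 libraries. Genes are ordered by class. Colours saturate at 1.2 in either direction. Psmb8, Psmb9 and Psmb10 are above their means in the PE groups of both strains, and Psmb5 separates the strains. Single libraries are not shown.

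The immunoproteasome genes were highest with PE in both strains. Psmb8, whose product replaces Psmb5, lies in the MHC region of chromosome 17 (chr17:34416690-34420428, GRCm39, + strand). In B6 mice it was at 2.92, 4.01 and 2.22 log2 CPM in Uninjured muscle, 3.34, 2.91 and 3.09 with Saline, 2.39, 2.71 and 3.84 with ECM, and 3.88, 4.86 and 3.63 with PE (replicates 1, 2 and 3). In MRL mice it was at 2.29, 3.26 and 2.02 in Uninjured muscle, 3.19, 2.15 and 2.16 with Saline, 2.63, 2.48 and 1.85 with ECM, and 4.03, 4.49 and 3.80 with PE. All 3 PE libraries were above all 3 Saline libraries in each strain. In MRL mice they were also above all 9 other libraries, whereas in B6 mice Uninjured replicate 2 and ECM replicate 3 reached the PE range. In these bulk libraries, fewer cells of a type and less RNA per cell cannot be told apart.

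Psmb9, which replaces Psmb6, is its neighbour (chr17:34400960-34406738, - strand). Its levels were 2.16, 3.13 and 2.08 in B6 Uninjured, 2.64, 2.44 and 2.73 in B6 Saline, 2.44, 2.59 and 3.36 in B6 ECM and 3.30, 4.36 and 2.83 in B6 PE libraries. In MRL mice they were 1.38, 2.83 and 1.56 in Uninjured, 2.89, 0.75 and 1.31 in Saline, 2.02, 2.10 and 3.06 in ECM and 3.21, 3.64 and 2.96 in PE libraries. PE was above Saline without overlap in each strain, and overlapped with ECM in each. Psmb9 overlaps the peptide transporter gene Tap1 (chr17:34405996-34416199) on the opposite strand, and the study's quantification command sets no strand option, so reads from the shared stretch cannot be told apart.

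Psmb10, which replaces Psmb7, is on another chromosome. It was at 2.92, 3.77 and 2.85 in B6 Uninjured, 3.23, 3.16 and 3.15 in B6 Saline, 3.35, 3.31 and 3.85 in B6 ECM and 4.11, 4.86 and 3.92 in B6 PE libraries. In MRL mice it was at 3.26, 3.34 and 2.46 in Uninjured, 3.47, 2.89 and 2.75 in Saline, 2.81, 2.69 and 3.20 in ECM and 3.92, 4.91 and 3.63 in PE libraries. In both strains its 3 PE libraries lay above the other 9.

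The constitutive catalytic genes did not share this pattern. Psmb7 was at 7.62, 7.86 and 7.58 in B6 Saline and 7.31, 6.74 and 7.43 in B6 PE libraries, and at 7.62, 7.79 and 7.79 in MRL Saline and 7.44, 6.55 and 7.63 in MRL PE libraries. PE was below Saline without overlap in B6 and overlapped with it in MRL mice, and the lowest PE library was replicate 2 in both strains. Psmb6 stayed between 6.41 and 7.42 in all 24 libraries. Psmb5 was at 6.88, 6.71 and 7.35 in B6 Saline and 6.79, 6.61 and 6.81 in B6 PE libraries, and at 5.09, 5.14 and 4.91 in MRL Saline and 4.54, 4.92 and 4.76 in MRL PE libraries. Its levels were thus set apart by strain, a difference described further on.

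**Figure D2:**
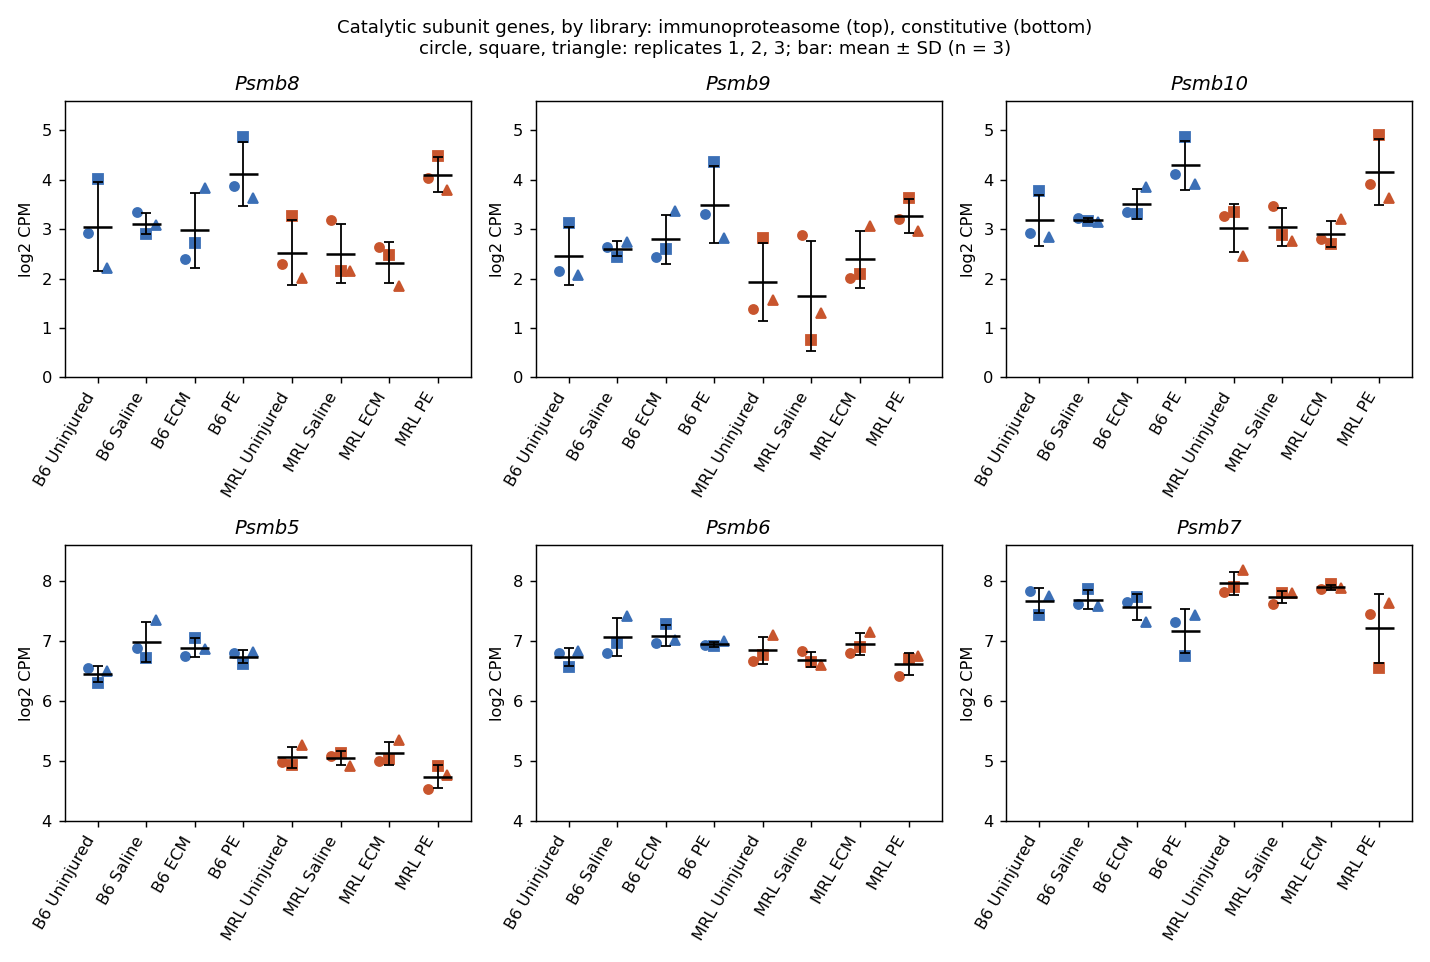
Log2 CPM of the immunoproteasome genes Psmb8, Psmb9 and Psmb10 (top, axis from 0) and the constitutive genes Psmb5, Psmb6 and Psmb7 (bottom, axis from 4) in each library of the 8 groups, with the group mean and SD (n = 3). The PE libraries are the highest group for the 3 top genes in both strains, and all MRL libraries are below all B6 libraries for Psmb5.

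Within single strains, no proteasome gene passed the threshold between PE and Saline. In B6 mice 5.97% of all genes were called in that comparison, and the smallest adjusted p among the 47 was 0.057, for Psmb10, at a log2 fold change of 1.12. The corresponding values were 1.01 for Psmb8 (adjusted p = 0.184) and 0.89 for Psmb9 (adjusted p = 0.28). In MRL mice 0% of all genes were called, and the log2 fold changes were 1.61 for Psmb8 (adjusted p = 0.11), 1.62 for Psmb9 (adjusted p = 0.118) and 1.12 for Psmb10 (adjusted p = 0.114). At an unadjusted p under 0.05, 12 of the 47 genes and 3563 of all genes differed in B6 mice, and 8 and 3298 in MRL mice. An exact test of 3 against 3 libraries cannot go below p = 0.1.

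Counted by libraries alone, 7 of the 47 genes were higher with PE than with Saline without overlap in B6 mice (Psmb8, Psmb9, Psmb10, Psmd10, Psme1, Psme2 and Psme2b) and 14 were lower, against 18.7% and 11.1% of all genes. In MRL mice 5 were higher (Psmb8, Psmb9, Psmb10, Psme2 and Psme2b) and 10 lower, against 10.8% and 9.48% of all genes. The count of higher genes was thus close to the background in each strain, and the 3 immunoproteasome genes were among them in both.

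The average of the PE effect over the strains, a comparison chosen after the data were seen, resolved these changes. Between PE and Saline, 10 of the 47 genes were called, 5 higher and 5 lower (21.3%), and 24.2% of all genes were, 15% higher and 9.17% lower. Psmb8 rose by 1.31 on the log2 scale (SE 0.33, 2.47-fold, 95% interval 0.62 to 2.00, adjusted p = 0.012). Psmb10 rose by 1.12 (SE 0.24, adjusted p = 0.00737) and Psmb9 by 1.26 (SE 0.36, adjusted p = 0.0199). Among the constitutive genes, Psmb7 fell by 0.52 (SE 0.16, adjusted p = 0.0258), while Psmb5 differed by -0.27 (adjusted p = 0.0864) and Psmb6 by -0.10 (adjusted p = 0.55). The median log2 fold change was -0.14 over the 47 genes and 0.05 over all genes.

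Without MRL PE replicate 2, Psmb8 (1.21, adjusted p = 0.0302) and Psmb10 (0.93, adjusted p = 0.0124) were still called, whereas Psmb9 (1.17, adjusted p = 0.0519) and Psmb7 (-0.36, adjusted p = 0.066) were not. Without B6 PE replicate 2, the values were 1.12 for Psmb8 (adjusted p = 0.0483), 0.98 for Psmb10 (adjusted p = 0.0317), 1.04 for Psmb9 (adjusted p = 0.0764) and -0.42 for Psmb7 (adjusted p = 0.094). The number of called proteasome genes was 3 without either of these libraries and 17 without MRL PE replicate 3. For the fit without MRL PE replicate 3 the share over all genes is not given, so its count is not read as a result about the proteasome. Of all 14159 genes, 1338 were called higher and 543 lower without MRL PE replicate 2, and 820 and 262 without B6 PE replicate 2. With both PE replicates numbered 2 left out, 1 proteasome gene was called, Psmb10 (0.79, adjusted p = 0.0415), where 665 of all genes were called higher and 111 lower. When only the 4 groups compared were fitted, 1 proteasome gene was called, Psmb8, with the share over all genes not given.

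PE was also compared with ECM, the other implanted material, and this comparison shares the PE libraries with the one above. Within strains no proteasome gene was called, against 0.226% of all genes in B6 and 0% in MRL mice. At an unadjusted p under 0.05, 4 of the 47 and 2911 of all genes differed in B6 mice, and 23 and 4022 in MRL mice. On average over the strains, 18 of the 47 genes were called (38.3%), 4 higher and 14 lower, where 24.9% of all genes were, 14.7% higher and 10.3% lower. Psmb8 rose by 1.47 (SE 0.33, adjusted p = 0.0101) and Psmb10 by 1.02 (SE 0.24, adjusted p = 0.0113), Psmb7 fell by 0.54 (adjusted p = 0.0236), and Psmb9 differed by 0.79 (SE 0.36, adjusted p = 0.112). The count was 2 without B6 PE replicate 2 (Psmb8 and Psmb10), 5 without MRL PE replicate 2 (Psmb8, Psmb10, Psmd12, Psmd3 and Psmd7), 0 without both and 21 without MRL PE replicate 3. The share over all genes is not given for the fit without MRL PE replicate 3, so its count is not read as a result about the proteasome. Of all 14159 genes, 653 were called higher and 186 lower without B6 PE replicate 2. These numbers were 1319 and 579 without MRL PE replicate 2, and 475 and 80 without both. Counted without overlap, 1 gene was higher (Psmb10) and 7 lower in B6 mice, against 19.5% and 14.6% of all genes. In MRL mice 3 were higher (Psmb8, Psmb10 and Psme2) and 25 lower, against 14.8% and 15% of all genes.

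To compare immunoproteasome with constitutive genes in the same library, the mean log2 CPM of Psmb5, Psmb6 and Psmb7 was subtracted from that of Psmb8, Psmb9 and Psmb10. This is a description, and its size depends on the genes' lengths, so its differences between libraries are what can be read. In B6 mice it was -4.05 ± 0.81 in Uninjured, -4.28 ± 0.22 in Saline, -4.08 ± 0.61 in ECM and -2.98 ± 0.82 in PE libraries (SD, n = 3). In MRL mice it was -4.13 ± 0.72, -4.10 ± 0.67, -4.12 ± 0.07 and -2.34 ± 0.61 in the same order. The PE value was thus higher than the Saline value by 1.30 in B6 and 1.75 in MRL mice. Of this, the immunoproteasome genes rose on average by 1.01 and 1.45, and the constitutive ones differed by -0.29 and -0.30. The MRL PE libraries, at -2.41, -1.70 and -2.91, were above all other MRL libraries, while among B6 libraries Uninjured replicate 2 (-3.13) and ECM replicate 3 (-3.38) were above PE replicate 3 (-3.62).

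The strains (MRL minus B6) differed by 0.63 in this quantity with PE, and by 0.01 when Psmb5 was left out of the constitutive mean. In the other groups leaving Psmb5 out moved the strain difference away from 0, from -0.08 to -0.61 in Uninjured, from 0.18 to -0.41 in Saline and from -0.04 to -0.66 in ECM muscle. Leaving it out changed the difference between PE and Saline little, to 1.33 in B6 and 1.75 in MRL mice. A strain comparison of the quantity thus depended on whether Psmb5 was included.

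**Figure D3:**
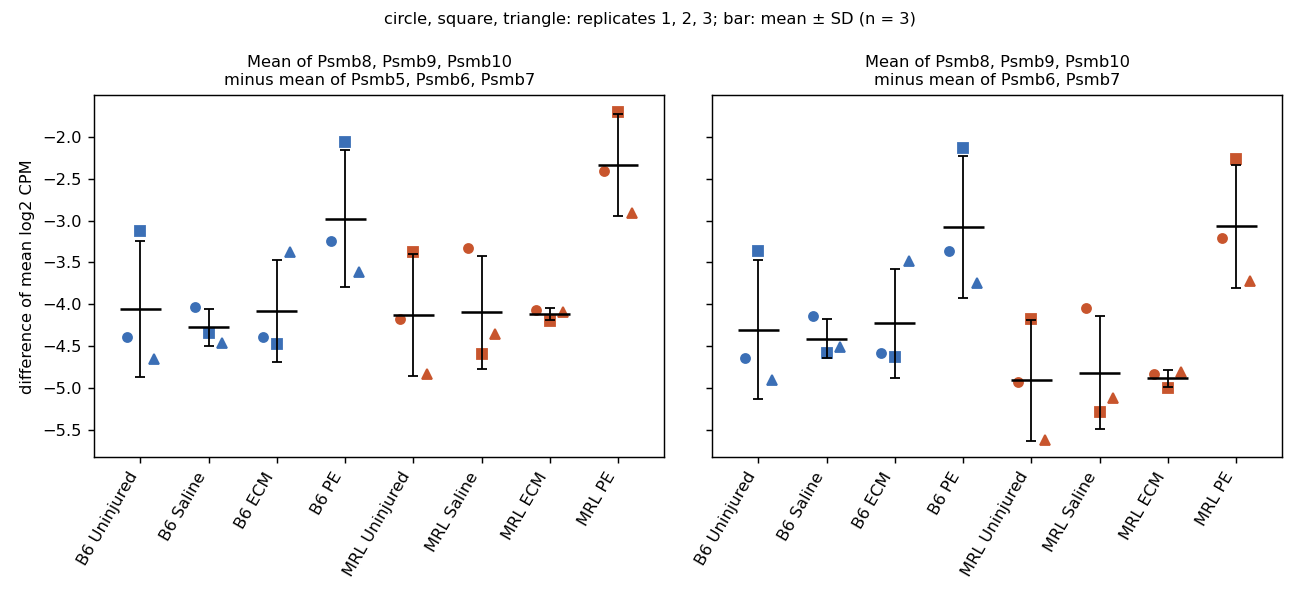
Mean log2 CPM of Psmb8, Psmb9 and Psmb10 minus that of the constitutive genes in each library, with group mean and SD (n = 3), with Psmb5 (left) and without it (right). The PE groups are highest in both panels, at -2.98 and -2.34 on the left and -3.08 and -3.07 on the right for B6 and MRL mice.

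Markers of infiltrating cells moved with PE as well. Leukocyte and macrophage markers (8 of 9 held) summed to 146 to 192 CPM in B6 Uninjured, 321 to 358 in Saline, 286 to 856 in ECM and 1590 to 5660 in PE libraries. In MRL mice the sums were 87.5 to 187, 150 to 477 and 199 to 288 in the first 3 groups, and 248, 4930 and 251 in the PE libraries 1, 2 and 3. All 8 were called higher with PE than with Saline on average over the strains, as were 4 of 4 neutrophil markers and 3 of 7 T and NK cell markers, against 15% of all genes, and 3 of 8 fibre markers were called lower, against 9.17%. Without MRL PE replicate 2, 6 of 8, 4 of 4 and 0 of 7 were called higher and 3 of 8 fibre markers lower, and without B6 PE replicate 2 these counts were 5, 4, 0 and 1. Of all 14159 genes, 1338 were called higher and 543 lower in the first of these fits, and 820 and 262 in the second. None of the 4 B cell markers was held. In MRL PE replicates 1 and 3 the leukocyte sum was within the range of the MRL ECM group, and Psmb8, at 4.03 and 3.80, was above all 9 MRL libraries without PE, of which the highest was at 3.26. Adipocyte markers (5 held) summed to 3850 and 2530 CPM in these same 2 libraries, above the 332 of MRL PE replicate 2 and the 203 to 1820 of the MRL libraries without PE, while B6 PE libraries were at 133 to 272. Their sum was 2940 in B6 Uninjured replicate 2 and 1450 in B6 ECM replicate 3, the 2 B6 libraries without PE that reached the PE range of Psmb8. No adipocyte marker was called between PE and Saline. The part of any of these cells in the results was not tested.

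Of the activators, which open the gate of the 20S core, Psme1 and Psme2 form the interferon-induced ring. Psme2 was at 4.71, 4.85 and 5.15 in B6 Saline and 5.56, 6.01 and 5.25 in B6 PE libraries, and at 5.14, 4.59 and 4.58 in MRL Saline and 5.38, 5.51 and 5.46 in MRL PE libraries. The groups did not overlap in either strain. Psme2 rose by 0.69 on average over the strains (SE 0.17, adjusted p = 0.0107) and by 0.71 (adjusted p = 0.0803) and 0.68 (adjusted p = 0.129) in B6 and MRL mice alone. Psme1 differed by 0.25 (adjusted p = 0.164) from Saline and rose by 0.37 (adjusted p = 0.0497) against ECM, where Psme2 rose by 0.52 (adjusted p = 0.0331). Without MRL PE replicate 2 the Psme2 rise against Saline was 0.68 (adjusted p = 0.0215), and against ECM neither Psme2 (0.51, adjusted p = 0.0689) nor Psme1 (0.33, adjusted p = 0.114) was called. Without B6 PE replicate 2 the values against ECM were 0.42 for Psme2 (adjusted p = 0.113) and 0.29 for Psme1 (adjusted p = 0.158), with neither called.

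The other activators are not known as interferon-induced. Psme3, which encodes a mainly nuclear activator, differed by -0.11 between PE and Saline (adjusted p = 0.479). Psme4 encodes a large single-chain activator, and was at 7.62, 7.16 and 7.67 in B6 PE and 7.81, 6.83 and 7.91 in MRL PE libraries. It differed by -0.48 from Saline (adjusted p = 0.107) and fell by 0.66 against ECM (adjusted p = 0.0344), a call that was lost without MRL PE replicate 2 (-0.49, adjusted p = 0.103) or B6 PE replicate 2 (-0.58, adjusted p = 0.106). Psmf1, an inhibitor of the 20S core, differed by -0.16 and 0.02 in these comparisons, with neither called.

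Psme2 has a near-identical copy in the matrix, Psme2b (chr11:48836181-48837017), which bears on its values because short reads of either can be assigned to both. Over 795 aligned bases they are 99.4% identical. The stretch from coding base 424 to 543 holds 3 of the few bases at which they differ, in capitals:
Psme2: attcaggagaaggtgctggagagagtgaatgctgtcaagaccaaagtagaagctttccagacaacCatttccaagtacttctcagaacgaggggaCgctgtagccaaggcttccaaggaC
Psme2b: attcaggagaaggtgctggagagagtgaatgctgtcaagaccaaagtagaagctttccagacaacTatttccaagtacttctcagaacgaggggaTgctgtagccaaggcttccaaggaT
Psme2b was listed at no more than 3.98 CPM in any library, against 20.7 to 64.4 CPM for Psme2. The sum of both was 4.94 ± 0.20 log2 CPM with Saline and 5.68 ± 0.39 with PE in B6 mice, and 4.80 ± 0.31 and 5.49 ± 0.08 in MRL mice (SD, n = 3), so the order of the groups did not rest on how reads were shared.

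The standard subunits moved the other way from the immunoproteasome genes, by less. Of the 31 genes for constitutive 20S and 19S subunits, 29 had a negative log2 fold change between PE and Saline, with a median of -0.19, and 5 were called lower (Psmb7, Psmd12, Psmd7, Psmd3 and Psmd4) and none higher. Over all genes 9.17% were called lower. None of the 31 was called without MRL PE replicate 2 (median -0.14) or without B6 PE replicate 2 (median -0.16). Calls over all genes fell as well, from 1299 lower of 14159 to 543 and 262 in these fits. When libraries were scaled to equal total CPM instead, the median of all genes moved from 0.05 to 0.31 and that of the 31 genes to 0.08, with 0 called lower, so the fall is a fall relative to the other genes. With that scaling, 6 of the 47 proteasome genes were called higher and 0 lower, against 5 and 5 before. Of all 14159 genes, 3353 were called higher and 539 lower with it. Psmd12 and Psmd3 encode scaffold subunits of the 19S lid, Psmd7 the inactive partner of its deubiquitinating enzyme, and Psmd4 a ubiquitin receptor.

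Psmd12 was at 6.75, 6.90 and 6.59 in B6 Saline and 6.50, 6.04 and 6.53 in B6 PE libraries, and at 6.77, 6.95 and 6.96 in MRL Saline and 6.65, 6.01 and 6.62 in MRL PE libraries. The PE libraries were below Saline in both strains, and replicate 2 was the lowest in each. Psmd12 fell by 0.43 (SE 0.13, adjusted p = 0.023), Psmd7 by 0.38 (adjusted p = 0.0363), Psmd3 by 0.36 (adjusted p = 0.0289) and Psmd4 by 0.35 (adjusted p = 0.0443). Without MRL PE replicate 2 the values were -0.33 for Psmd12 (adjusted p = 0.0654), -0.28 for Psmd7 (adjusted p = 0.107), -0.24 for Psmd3 (adjusted p = 0.0718) and -0.23 for Psmd4 (adjusted p = 0.123). None of the 7 alpha subunit genes, the 4 other beta subunit genes or the 6 ATPase genes was called in this comparison. Fibre marker sums were also lowest in these 2 libraries, at 42100 CPM in B6 PE replicate 2 and 25600 in MRL PE replicate 2, and their part in the fall was not tested.

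Against ECM, 12 of the 31 genes were called lower, where 10.3% of all genes were, 5 of them among the 6 ATPases that unfold substrates: Psmc3 (-0.42), Psmc5 (-0.39), Psmc6 (-0.38), Psmc1 (-0.37) and Psmc4 (-0.32). The others were Psmb7, Psma6 (-0.31) and the 19S genes Psmd7 (-0.47), Psmd12 (-0.46), Psmd3 (-0.41), Psmd4 (-0.39) and Psmd6 (-0.39). The median of the 31 was -0.24, with that of all genes at 0.05. Of the 12, Psmd12, Psmd3 and Psmd7 were still called without MRL PE replicate 2, and 0 without B6 PE replicate 2. In these fits 579 and 186 of all 14159 genes were called lower. With equal totals the medians of the 31 and of all genes were 0.04 and 0.32. Then 0 of the 47 genes were called lower and 5 higher, where 478 and 3403 of all 14159 genes were.

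Of the 7 assembly chaperones, which build the core and cap but are not part of the finished particle, Psmd10 was called. Psmd10, also known as gankyrin, rose by 0.44 between PE and Saline on average over the strains (SE 0.13, adjusted p = 0.0202). It was at 3.62, 3.47 and 3.66 in B6 Saline and 4.04, 4.27 and 4.07 in B6 PE libraries, without overlap. In MRL mice it was at 3.65, 3.60 and 3.39 with Saline and 3.48, 4.39 and 3.80 with PE, so the groups overlapped and replicate 2 was highest. The Psmd10 call was lost without MRL PE replicate 2 (0.32, adjusted p = 0.0518) or B6 PE replicate 2 (0.41, adjusted p = 0.0686). Psmd9 fell by 0.28 between PE and ECM, and was not called without MRL PE replicate 2 (-0.28, adjusted p = 0.0755) or B6 PE replicate 2 (-0.27, adjusted p = 0.104).

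**Figure D4:**
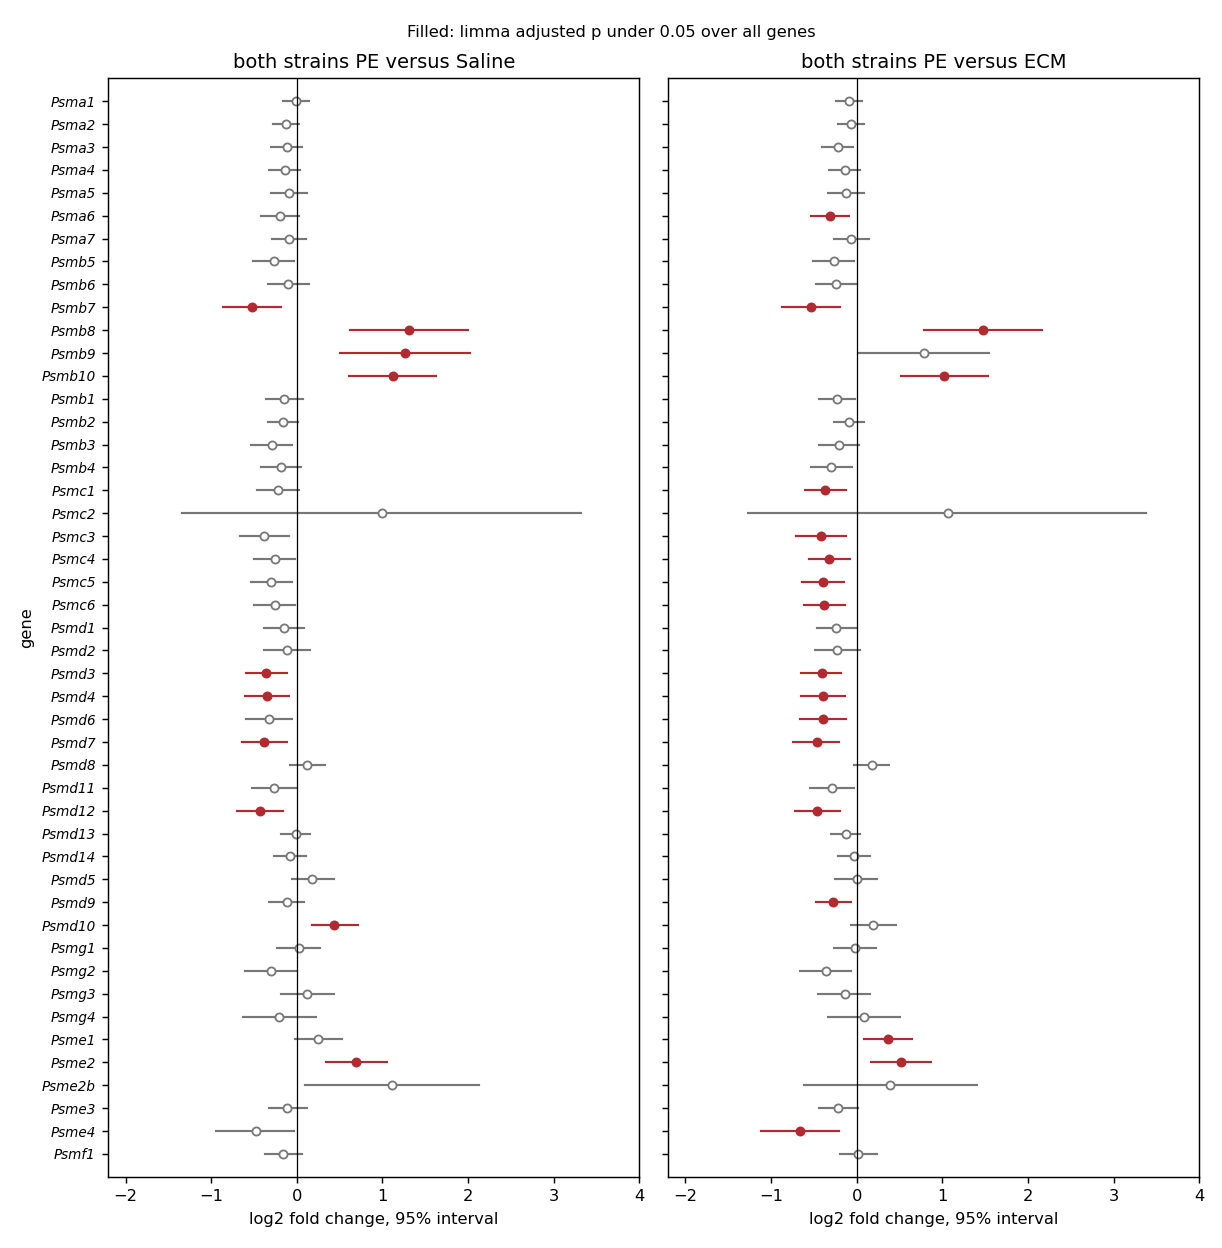
Log2 fold change of each proteasome gene between PE and Saline, averaged over the strains, with its 95% interval from limma and genes ordered by class. Psmb8 (1.31), Psmb9 (1.26) and Psmb10 (1.12) are the largest of the called changes, and most 20S and 19S genes are slightly below 0. With libraries scaled to equal total CPM, the median of the 31 standard 20S and 19S genes moved from -0.19 to 0.08.

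Whether the strains responded differently was tested as the difference of their fold changes. No gene of the matrix was called for PE against Saline or for ECM against Saline (0% in each), and at an unadjusted p under 0.05 none of the 47 proteasome genes differed, where 614 and 320 of all genes did. The response to PE was larger in MRL than in B6 mice by 0.60 for Psmb8 (95% interval -0.78 to 1.98), by 0.73 for Psmb9 (-0.79 to 2.24) and by 0.00 for Psmb10 (-1.0 to 1.01). These intervals leave room for a difference of a doubling or more for each of the 3 genes.

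Injury with Saline and the ECM material left the proteasome genes without a call. Between Saline and Uninjured muscle, 0% of all genes were called in B6 mice, in MRL mice and in the average over both. At an unadjusted p under 0.05, 6 of the 47 proteasome genes and 1751 of all genes differed in the B6 strain, 0 and 439 in the MRL strain, and 2 and 1580 in the average. Between ECM and Saline, 0.0283% of all genes were called in B6 mice, 0.00706% in MRL mice and 0.0283% in the average, none of them a proteasome gene. At an unadjusted p under 0.05, 1 of the 47 and 565 of all genes differed in the B6 strain, 0 and 503 in the MRL strain, and 0 and 778 in the average. Over both strains, the median log2 fold changes of the 47 genes were 0.01 for Saline against Uninjured and 0.07 for ECM against Saline, with medians of -0.01 and 0.01 over all genes. The 3 immunoproteasome genes differed by at most 0.47 in these averages. Counted by libraries that did not overlap, 11 of the 47 genes were higher and 0 lower with Saline than in Uninjured muscle in the B6 strain, Psmb5 and Psmd4 among the 11, against 8.59% and 7.34% of all genes. In the MRL strain 1 was higher (Psmg4) and 9 lower, against 5.97% and 7.07%. With ECM, 3 were higher and 1 lower than with Saline in the B6 strain, against 4.53% and 3.74% of all genes, and 13 were higher and 0 lower in the MRL strain, against 6.8% and 5.68%. Both MRL comparisons use the same Saline libraries, so their counts are not independent.

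The largest strain difference was that of Psmb5. This gene (chr14:54850776-54855481, - strand) encodes the chymotrypsin-like subunit. Its levels in the 12 B6 libraries were 6.54, 6.30 and 6.50 in Uninjured, 6.88, 6.71 and 7.35 in Saline, 6.75, 7.05 and 6.86 in ECM and 6.79, 6.61 and 6.81 in PE muscle. In the MRL libraries they were 4.99, 4.93 and 5.26 in Uninjured, 5.09, 5.14 and 4.91 in Saline, 5.0, 5.04 and 5.35 in ECM and 4.54, 4.92 and 4.76 in PE muscle. Every MRL library was below every B6 library. Over the 47 genes this held for Psmb5 and Psma1, and for none in the other direction, where it held for 0.784% and 0.657% of all genes.

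Psmb5 was lower in MRL than in B6 mice by a log2 fold change of -1.39 in Uninjured (adjusted p = 1.1e-05), -1.93 in Saline (adjusted p = 9.6e-08), -1.76 in ECM (adjusted p = 4.2e-07) and -2.0 in PE muscle (adjusted p = 7.5e-08), each with an SE of 0.16. Averaged over the treatments, it was at 0.293 times the B6 level (-1.77, SE 0.08, adjusted p = 1.8e-12). It was called in each of these comparisons under every alternative and with each library left out. The immunoproteasome counterpart Psmb8 differed by -0.45 over the treatments (adjusted p = 0.19), and Psmb6 by -0.18 (adjusted p = 0.14) and Psmb7 by 0.18 (adjusted p = 0.285).

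A copy of Psmb5 in the genome, Gm3375 (chr7:3230842-3231636, + strand), limits how this difference can be read. The transcripts are 99.0% identical over 795 aligned bases, with a longest identical run of 194 bases, where the Psmb5 transcript has 1701 bases. A further copy, Psmb5-ps, is 92.0% identical to Psmb5 over 810 aligned bases. Gm3375 itself was not analysed here. The stretch from coding base 268 to 387 is shown with the 3 differing bases in capitals, since a strain's own sequence at such bases decides to which of the genes its reads are assigned:
Psmb5: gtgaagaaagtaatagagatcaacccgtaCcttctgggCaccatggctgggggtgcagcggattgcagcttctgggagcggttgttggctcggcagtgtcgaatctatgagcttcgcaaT
Gm3375: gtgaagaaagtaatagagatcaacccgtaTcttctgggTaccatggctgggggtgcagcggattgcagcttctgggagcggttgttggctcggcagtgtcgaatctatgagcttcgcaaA
The reads were assigned to a transcript set of the reference mouse genome, which is built from C57BL/6J, and sequence of the MRL strain was not analysed here. Less Psmb5 RNA and fewer MRL reads assigned to Psmb5 therefore cannot be told apart.

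Psma3, an alpha subunit gene, was also lower in MRL mice. It lay between 6.44 and 7.11 in B6 and between 6.21 and 6.59 log2 CPM in MRL libraries, which overlapped through B6 PE replicate 2, at 6.44. The log2 fold change of MRL against B6 mice was -0.53 in Uninjured (adjusted p = 0.0199), -0.69 in Saline (adjusted p = 0.00161), -0.49 in ECM (adjusted p = 0.0324) and -0.37 in PE muscle (adjusted p = 0.104), and -0.52 on average (adjusted p = 4.1e-06). The calls in Uninjured and ECM muscle were lost when single libraries were left out, and all 3 when only the compared groups were fitted. Psma3 has a copy in the matrix as well, Gm13835, listed at up to 4.13 CPM. Their sum was 6.99 ± 0.07 in B6 and 6.45 ± 0.10 log2 CPM in MRL Uninjured muscle (SD, n = 3), a gap of the same order as for Psma3 alone (6.95 ± 0.06 and 6.43 ± 0.12). Further copies, Gm4742 and Gm5406 (96.5% identical over 772 and 766 aligned bases), are not in the matrix. How reads were shared with them could not be examined. Less Psma3 RNA and fewer MRL reads assigned to Psma3 therefore cannot be told apart.

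Psmg4, an assembly chaperone of the alpha ring, was higher in MRL mice. Its levels were 1.11, 1.05 and 1.33 in B6 and 2.26, 2.34 and 2.34 in MRL Uninjured libraries, without overlap. The log2 fold change was 1.15 in Uninjured muscle (adjusted p = 0.0322), 0.61 in Saline (adjusted p = 0.366), 0.72 in ECM (adjusted p = 0.264), 0.68 in PE (adjusted p = 0.197) and 0.79 on average (adjusted p = 0.00067). The call in Uninjured muscle was lost with any of its 6 libraries left out, with an adjusted p of 0.0657 to 0.13, and with equal totals, with an adjusted p of 0.169.

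In total, 3 of the 47 genes were called between the strains in Uninjured (2.6% of all genes), 2 in Saline (2.51%), 2 in ECM (2.66%) and 1 in PE muscle (3.35%). On average over the treatments, also chosen after the data were seen, 10 were called (21.3%), with 15.2% of all genes called, 7.37% higher and 7.87% lower. The 6 lower in MRL mice were Psmb5, Psma3, Psma1 (-0.28), Psmd8 (-0.28) and the assembly chaperones Psmg2 (-0.35) and Psmg3 (-0.31). The 4 higher were Psmg4, the 19S scaffold gene Psmd1 (0.25), the deubiquitinating enzyme gene Psmd14 (0.24) and Psmb2 (0.18). Scaling to equal totals moved the median of all genes from -0.01 to -0.15. Then 1 of the 47 was called higher and 8 lower, where 573 and 1438 of all 14159 genes were. The count was 17 without MRL PE replicate 2, a fit for which the share over all genes is not given.

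**Figure D5:**
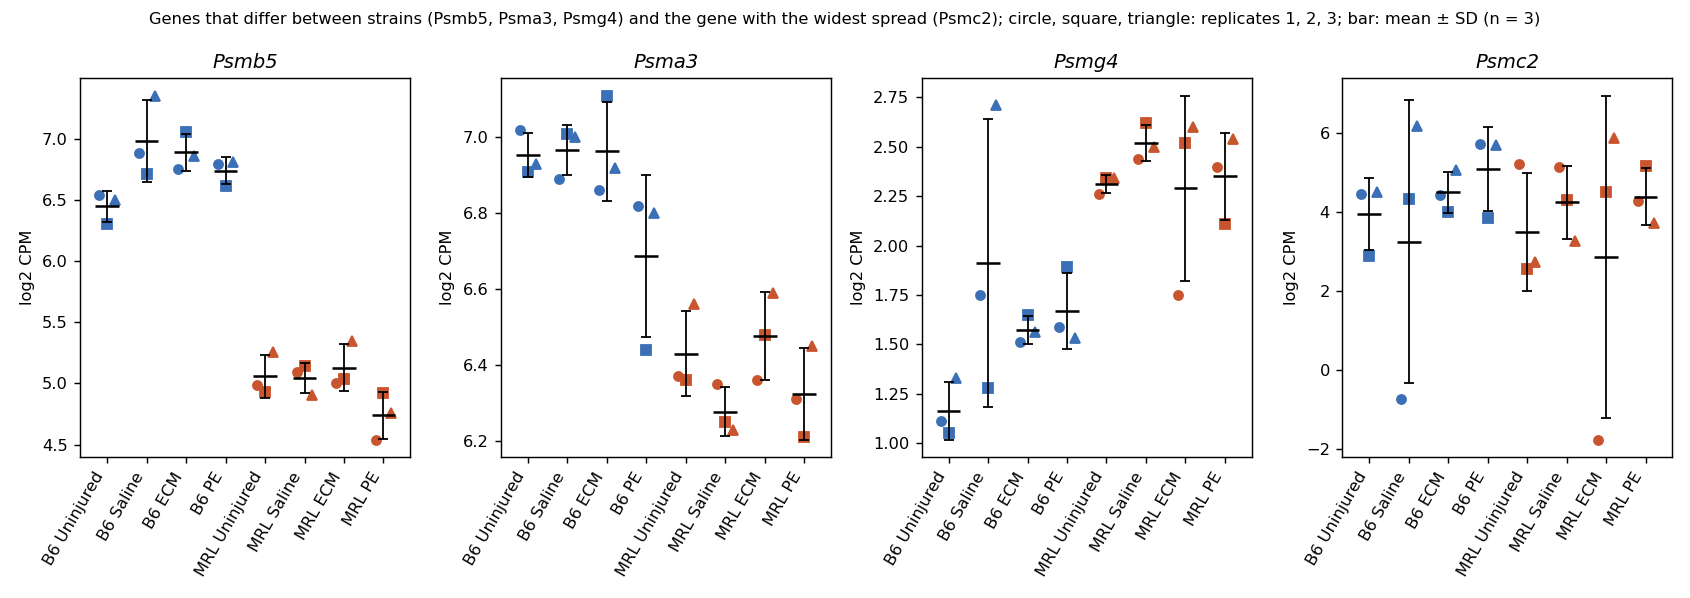
Log2 CPM of Psmb5, Psma3 and Psmg4, which were called between the strains, and of Psmc2, which was not and had the widest spread. Each library of the 8 groups is shown, with the axis of each panel set to its own range. All MRL libraries are below all B6 libraries for Psmb5, at 4.54 to 5.35 against 6.30 to 7.35, while the other differences are smaller.

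The genes that use the peptides of the immunoproteasome rose with PE too. Of 10 genes for MHC class I peptide loading, 9 were called higher between PE and Saline on average over the strains, with a median of 1.04, against 15% of all genes called higher. B2m, the light chain of MHC class I, rose by 1.67 (SE 0.33, adjusted p = 0.00592), the peptide transporter genes Tap1 and Tap2 by 1.2 (adjusted p = 0.00942) and 1.13 (adjusted p = 0.00707), and the chaperone gene Pdia3 by 1.17 (adjusted p = 0.00998). Pdia3 was at 6.82, 8.80 and 6.70 with PE and 6.79, 6.19 and 6.24 with Saline in MRL mice, so the groups overlapped. They did not overlap in B6 mice. Nlrc5, a transactivator of class I genes, differed by 1.44 (SE 0.52, adjusted p = 0.0505). Without MRL PE replicate 2, 9 of 10 were called (median 0.85), with B2m at 1.56, Tap1 at 1.11 and Pdia3 at 0.83, and without B6 PE replicate 2, 5 of 10 (median 0.90). In these fits 1338 and 820 of all 14159 genes were called higher. Against ECM, 9 of 10 were called higher, with a median of 0.85, against 14.7% of all genes. Without these libraries, in the same order, 5 and 3 of 10 were, as were 1319 and 653 of all 14159 genes. The leukocyte marker sums given above were higher in 4 of the 6 PE libraries than in any Saline library, and their part in these changes was not tested.

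Interferon-gamma signalling, the pathway that induces Psmb8, Psmb9 and Psmb10, was listed with 10 genes, of which 9 were held and Ifng itself was not. Of the 9, 4 were called higher between PE and Saline and none lower, where 15% of all genes were called higher. The count was also 4 without MRL PE replicate 2 and without B6 PE replicate 2, where 1338 and 820 of all 14159 genes were called higher. The 4 in the full fit included Irf8 (1.44), Irf9 (0.92) and the receptor gene Ifngr1 (0.75), whereas Irf1 differed by 0.38 (adjusted p = 0.16). The values were 0.99 for Irf8, 0.78 for Irf9 and 0.65 for Ifngr1 without MRL PE replicate 2, all 3 called. Irf8 was at 3.53, 6.08 and 3.19 with PE and 3.48, 2.90 and 2.98 with Saline in MRL mice, so the groups overlapped. They did not overlap in B6 mice. In B6 mice alone, where 5.97% of all genes were called, Irf9 (0.89, adjusted p = 0.0475) and the class I chaperone gene Canx (0.97, adjusted p = 0.0459) passed. Of 12 proteasome-associated genes, Nfe2l2, a transcription factor of the oxidative stress response, rose by 0.70 (adjusted p = 0.025), and Nfe2l1, a transcription factor that raises proteasome genes when proteasome activity is short, fell by 0.79 (adjusted p = 0.0278). These were 0.44 (adjusted p = 0.0454) and -0.57 (adjusted p = 0.081) without MRL PE replicate 2, and without B6 PE replicate 2 they were 0.59 (adjusted p = 0.0893) and -0.66 (adjusted p = 0.0967). In B6 mice alone Nfe2l2 was called as well (1.11, adjusted p = 0.0379). Its levels there were 6.39, 6.85 and 5.97 with PE and 5.51, 4.90 and 5.47 with Saline, without overlap. In MRL mice Nfe2l2 was at 5.23, 6.88 and 5.45 with PE and at 5.54, 5.65 and 5.50 with Saline, so replicate 2 alone was above the Saline libraries. Pomp, the maturation factor of the 20S core, differed by -0.02 (adjusted p = 0.906). None of 6 ubiquitin genes was called, with Uba6 at 0.43 (adjusted p = 0.0935).

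Between the strains, 2 of the 10 class I genes were called lower in MRL mice on average over the treatments, Nlrc5 (-1.53) and Tap1 (-0.85). The interferon-gamma gene Irf9 (-0.61) was called lower as well. Of all genes, 7.87% were called lower and 7.37% higher. The 3 immunoproteasome genes differed by -0.26 to -0.53 in the same comparison, with none called. Of the ubiquitin genes, Rps27a (-0.36), which encodes ubiquitin fused to a ribosomal protein, was lower in MRL mice. Of the proteasome-associated genes, the deubiquitinase gene Uchl5 (0.33) and the protease gene Ddi2 (0.31) were higher.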

How the data were processed

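The authors prepared polyA RNA libraries, quantified them with kallisto against Ensembl GRCm39 cDNA, kept genes above 1 CPM in at least 3 libraries, applied TMM factors and deposited log2 CPM with a prior count of 2. The deposited matrix holds 24 libraries and 14160 rows, of which 1 carries no symbol and was dropped. Read totals per library are not in it, but its lowest value, -3.65 (a count of 0), implies a mean effective library of 25149682 reads. A level of 3 counts corresponds to 0.119 CPM.

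Differences were tested with limma 3.58.1 in R 4.3.3: 1 coefficient per group over all libraries, moderated variances with a mean trend, and Benjamini-Hochberg adjustment over 14159 genes, called at 0.05, after a test on simulated data. Values were not counts, so no count model was used. The 47 genes and all gene lists were chosen with earlier results of these data known. The 6 catalytic genes, Psme1 to Psme4 and Psmf1 were always named, and of other classes and lists up to 3 called genes with the largest change, or the largest where none was called. Other called proteasome genes, Psmc2, and the list genes Irf1, Pomp, Pdia3 and Nlrc5 were named after their values were seen. Some list genes are not reported here. Averages over strains or treatments were added after the data were seen. Same-numbered replicates deviated together (r over 0.1 in every pair) only between the 2 PE groups, with r of 0.105, 0.532 and 0.439. Alternatives were another pseudocount, a filter at a mean log2 CPM of 1, equal totals, library weights (gene by gene), compared groups only, a replicate block and each library left out. Copies were found with BLAST 2.17.0 at 90% identity over 50% of the shorter transcript. Positions are from GENCODE on GRCm39.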

Additional observations from a re-analysis of the deposited data

Results flagged for a closer look

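Psmd4, a ubiquitin receptor of the 19S cap, differed in opposite directions between Saline and Uninjured muscle in the 2 strains. In B6 mice its levels were 6.93, 6.76 and 6.90 log2 CPM in Uninjured and 7.03, 7.21 and 7.35 in Saline libraries, a log2 fold change of 0.33 with every Saline library higher. In MRL mice they were 7.06, 7.18 and 7.43 in Uninjured and 7.0, 6.99 and 7.04 in Saline libraries, a log2 fold change of -0.21 with every Saline library lower. The difference between the strains was not tested, and neither change was called (adjusted p = 0.442 in B6 mice in limma).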

How the results depend on the processing

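Direction and side of the threshold held for most values: of 1468 alternative fits over 76 gene results, 1158 gave the same answer, 266 lost a call, 34 gained one and 10 changed sign. Library weights raised the count of called proteasome genes to 1 for B6 Saline against Uninjured, 8 for B6 PE against Saline, 7 for B6 PE against ECM, 5 and 9 for the same MRL comparisons, 7, 13 and 14 between the strains in Saline, ECM and PE muscle, and 26 over all treatments. Over all treatments the weights called 13 of the 47 higher and 13 lower, where 3415 and 3643 of all 14159 genes were called. For the other weighted counts the share over all genes is not given here, so they are not read as results about the proteasome. Equal totals gave 2 for MRL PE against ECM and, over both strains, 6 for PE against Saline and 5 for PE against ECM. In the latter 2, 3353 and 3403 of all genes were called higher, and 539 and 478 lower. Fitting the compared groups alone, with fewer libraries behind the variance, gave 1 between the strains in Saline, 1 in ECM, and, over both strains, 1 (Psmb8) for PE against Saline and 2 (Psmb8 and Psmb10) for PE against ECM. With both PE replicates numbered 2 left out, there were 2 between the strains in PE muscle, 1 for PE against Saline and 0 for PE against ECM. Here and below, where no share over all genes is given for a fit, its counts are likewise not read as results about the proteasome. The cause of these changes in the counts was otherwise not tested.

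With single libraries left out, the counts ran over 0 to 2 for B6 Saline against Uninjured, 0 to 0 for B6 ECM against Saline, 0 to 2 for B6 PE against Saline, 0 to 0 for B6 PE against ECM, 0 to 0 for MRL Saline against Uninjured and MRL ECM against Saline, 0 to 3 for MRL PE against Saline and 0 to 13 for MRL PE against ECM (13 without MRL PE replicate 3). They ran over 1 to 2 between the strains in Uninjured, 2 to 3 in Saline, 1 to 2 in ECM and 1 to 3 in PE muscle, over 3 to 17 and 2 to 21 for PE against Saline and ECM in both strains, and over 7 to 17 for all treatments. The share of all genes called is not given for most of these fits, so the counts are not read as results about the proteasome. Between Saline and PE, Psmb8, Psmb10 and Psme2 were called in all 12 such fits and Psmb9 in 8.

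The immunoproteasome minus constitutive difference ran over -4.52 to -3.76, -4.40 to -4.18, -4.44 to -3.89 and -3.43 to -2.65 in B6 Uninjured, Saline, ECM and PE muscle and -4.50 to -3.78, -4.48 to -3.84, -4.15 to -4.08 and -2.66 to -2.06 in MRL muscle when libraries were left out. Without Psmb5 it was -4.91, -4.82, -4.88 and -3.07 in MRL muscle, and at log2(CPM + 1) it was -3.92 in MRL ECM muscle. Sign changes were limited to uncalled values. Equal totals gave 0.01 for Psmb5 against ECM, 0.16 and 0.04 for Psmb6 against Saline and ECM, 0.15 and 0.06 for Psme3, and 0.11 for Psmf1 against Saline. Weights gave 0.01 for Psmb6 against Saline. Psmf1 against ECM was -0.02 without both PE replicates 2 and ran over -0.04 to 0.10 with single libraries left out. With the replicate number as a block, 10 proteasome genes were called for PE against Saline, 18 for PE against ECM and 8 over all treatments. Between the strains with PE, where same-numbered libraries deviated together, Psmb5 was called as before. The labels do not say that these libraries are pairs. A level of 3 counts (0.119 CPM) marks the depth limit, which among the 47 genes Psme2b alone reached, at 0.11 CPM in 1 library.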

Other observations

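Near-identical copies are common among these genes. BLAST of all transcripts found one for 16 of the 47 proteasome genes, in 31 pairs with 90% identity or above that span 50% or more of the shorter sequence. In 3 of the pairs the copy is itself in the matrix. For the other genes with a copy, among them Psmb5, how the reads were shared could not be examined.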
